A study of Homo sapiens with 4 samples.

Results

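The regions described here are the H3K27ac peaks of 2 to 10 kb that were called in the BCP-ALL cell line 697 and had no REH peak near them. They were chosen by their position and length: a peak of the 697 list on 1 of the 22 autosomes with a length of at least 2000 bp and under 10000 bp, and no REH peak overlapping it or within 1000 bp of its start or end. This rule gave 3632 regions, called 697-only peaks below, of 13780 autosomal 697 peaks of that length and of 74504 697 peaks in all. They covered 11234382 bp, which was 11.2% of the bases under autosomal 697 peaks. The comparison was with the 9985 peaks of 697 in the same length range that overlapped a REH peak by at least 1 bp, called overlapping peaks. The other 163 peaks of this length lay within 1000 bp of a REH peak without touching it and were in neither set.

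H3K27ac ChIP-seq was performed on REH, an established BCP-ALL line positive for the ETV6/RUNX1 fusion that has lost its other ETV6 allele, and on 697, an established BCP-ALL line without that fusion. Both were grown in the same serum-supplemented RPMI medium, and each cell line had 1 ChIP library and 1 input DNA library. The comparison asks where a peak of this histone mark was called in an ETV6/RUNX1-negative line and none was called nearby in the positive line. Whether REH carries the mark below the calling cutoff at these regions was not tested. Each line is a single established culture, so what differs between them cannot be told apart from what differs between any pair of BCP-ALL lines or of libraries.

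Acetylation of lysine 27 of histone H3 is deposited by the acetyltransferases p300 and CBP and marks nucleosomes at active promoters and active enhancers. Promoters of widely used genes carry the mark in most cell types, whereas the set of distal enhancers that carry it changes with lineage and cell state. Active enhancers often lie in groups, and long or closely packed stretches of H3K27ac are known around genes that define a cell type.

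After removal of duplicate tags, 65241657 ChIP tags remained in REH and 68911420 in 697, and the lists held 43547 and 73460 autosomal peaks, a ratio of 1.69 in favour of 697. Of the autosomal 697 peaks of any length, 58.2% had no REH peak within 1000 bp, and in the range from 2 to 10 kb it was 26.4%. Both shares follow from the rule itself and are the background for the counts below. With 1 library per cell line and regions that come from the same library, no test was made, and the 95% exact binomial (Clopper-Pearson) and order-statistic intervals given here cover counting error only. The coordinates are on hg19, while the annotation at hand is on GRCh38, so genes, promoters, the cell type markers and the DNA sequence of the regions were not analysed here. Copy number was not measured, and its part in any of the values below was not tested.

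Long 697 peaks were found in 697 alone less often than short ones. The share with no REH peak within 1000 bp was 79.2% (interval 78.6 to 79.7) among the 19166 peaks under 500 bp and 46.5% (45.7 to 47.2) among the 18273 peaks from 1 to 2 kb. Inside the range studied it went from 31.3% (30.2 to 32.4) of 7243 peaks at 2 to 3 kb, through 24.8% (23.3 to 26.4) of 3131 at 3 to 4 kb, to 10.5% (7.22 to 14.7) of 285 at 8 to 10 kb. A longer peak has more bases at which a REH peak can lie, and the part of this in the course was not tested.

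**Figure D1:**
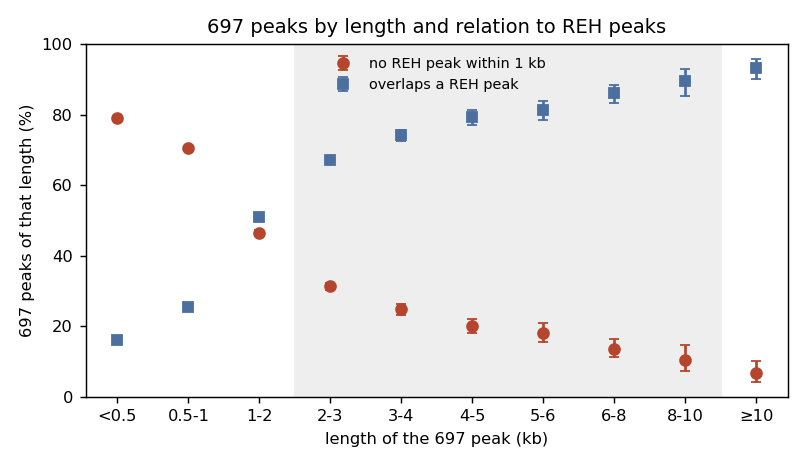
Share of autosomal 697 peaks (y axis, percent) with no REH peak within 1 kb (circles) and overlapping a REH peak (squares) in 10 classes of peak length (x axis, kb), with 95% exact binomial intervals; the shaded classes hold the range from 2 to 10 kb. The circles go from 31.3% at 2 to 3 kb to 10.5% at 8 to 10 kb.

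Most 697-only peaks lay at the short end of the range. Their median length was 2704 bp (interval 2668 to 2730), with quartiles of 2275 and 3440 bp and the longest at 9896 bp. The overlapping peaks had a median of 3037 bp (3009 to 3072) and reached 9990 bp. Of the 697-only peaks, 2265 (62.4%, interval 60.8 to 63.9) were under 3000 bp, against 4869 (48.8%, 47.8 to 49.7) of the overlapping peaks, and 286 (7.87%) against 1590 (15.9%) were 5000 bp or longer. The overlapping peaks met REH peaks that were mostly shorter than themselves. This is in part set by the rule, since the 697 peaks had to be at least 2000 bp long and REH peaks of any length counted. The longest REH peak under each had a median of 2210 bp, the 697 peak was the longer one in 71.8%, and REH peaks covered a median of 69.9% of its bases.

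The nearest REH peak was usually some distance away, beyond what the rule required. The median gap from a 697-only peak to the nearest REH peak was 11981 bp (interval 11297 to 12873), the quartiles were 4863 and 36538 bp, and the farthest was 1744366 bp away. For 2690 peaks (74.1%, interval 72.6 to 75.5) the gap exceeded 5 kb, for 1994 (54.9%, 53.3 to 56.5) it exceeded 10 kb, for 719 (19.8%, 18.5 to 21.1) 50 kb and for 49 (1.35%) 500 kb. An overlapping peak has a REH peak at distance 0, so the gap to the next REH peak that it did not touch was used for it. That gap had a median of 6132 bp (5931 to 6333) and exceeded 50 kb in 7.63% (7.12 to 8.17) of them. By this measure REH peaks were sparser around the 697-only peaks. Both classes were chosen by the positions of REH peaks, and the minimum of 1000 bp was imposed on the 697-only peaks alone. The contrast is therefore in part set by the rule and is given as a description.

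The 697-only peaks differed in how REH peaks lay on their sides. A REH peak lay within 50 kb on both sides of 1835 (50.5%) of them, on 1 side of 1078 (29.7%) and on neither side of 719 (19.8%). Among the overlapping peaks, with the peaks they touched left out, these shares were 67.0%, 25.3% and 7.63%. The gap on the farther side had a median of 49053 bp for the 697-only and 26449 bp for the overlapping peaks. Both classes were chosen by the positions of REH peaks. These contrasts are thus in part set by the rule and are given as a description. The nearest REH peak had a median length of 976 bp (interval 951 to 999), somewhat below the 1058 bp (1045 to 1070) of all autosomal REH peaks. The next REH peak that an overlapping peak did not touch had a median of 1074 bp (1049 to 1103). Of the REH peaks nearest to 697-only peaks, 21.2% (19.9 to 22.6) were under 500 bp. This share was within counting error of that of all REH peaks (interval 20.7 to 21.4). Of these nearest REH peaks, 84.3% (83.1 to 85.5) were themselves overlapped by a 697 peak, compared with 64.3% of all autosomal REH peaks. For the next REH peak that an overlapping peak did not touch, this share was 75.3% (74.5 to 76.2). Most 697-only peaks thus had a peak present in both cell lines as the closest REH peak on the chromosome, a count in which 1 REH peak can serve several members.

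**Figure D2:**
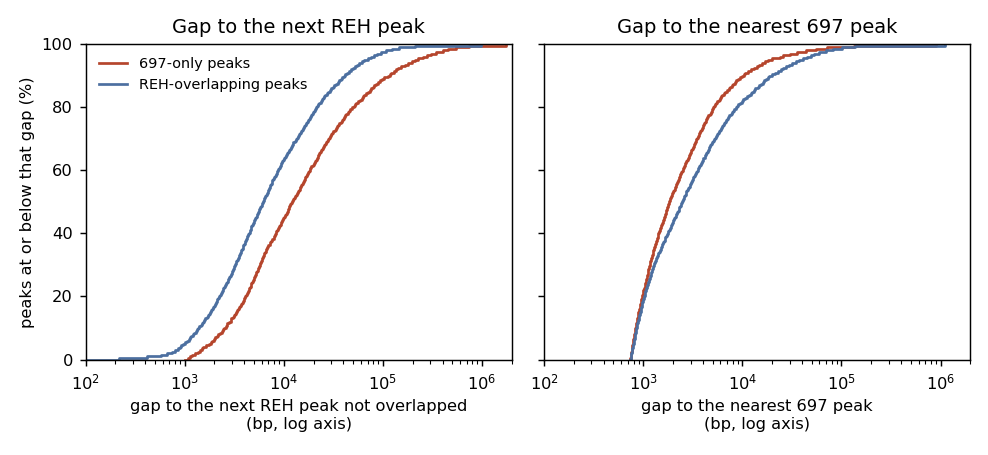
Cumulative share of peaks (y axis, percent) by the gap in bp (log axis, gaps under 100 bp drawn at 100) to the next REH peak not overlapped (left) and to the nearest other 697 peak (right), for 697-only and overlapping peaks. On the left the 697-only curve runs at larger gaps (median 11981 against 6132 bp), and on the right at smaller gaps (1821 against 2446 bp).

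In 697 itself the same regions were crowded. The gap to the nearest other 697 peak of any length had a median of 1821 bp (interval 1752 to 1904) for the 697-only peaks and 2446 bp (2365 to 2530) for the overlapping peaks. The smallest gap between 697 peaks anywhere on the autosomes was 741 bp, because the peak caller joins closer regions. Another 697 peak lay within 10 kb of 3269 697-only peaks (90.0%, interval 89.0 to 91.0) and of 82.0% (81.2 to 82.8) of the overlapping peaks. This nearest 697 peak also had no REH peak within 1000 bp in 79.1% (77.7 to 80.4) of the 697-only and 47.5% (46.5 to 48.5) of the overlapping peaks, where 58.2% of all autosomal 697 peaks had none. These shares are in part fixed by the rule, which clears REH peaks from the flank of a 697-only peak and places a REH peak at every overlapping peak, so they are given as a description. It was under 1000 bp long in 53.1% and 51.8%.

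Within 50 kb of its midpoint a 697-only peak had a median of 11 other 697 peaks (quartiles 6 and 15) and a median of 3 REH peaks (quartiles 1 and 5). An overlapping peak had a median of 9 other 697 peaks and 5 REH peaks, its own REH peak among them. Other 697 peaks covered a median of 14398 bp (interval 13811 to 14936) of this window around the 697-only peaks and 11211 bp (10900 to 11443) around the overlapping peaks. REH peaks covered 3210 bp (3038 to 3379) and 8379 bp (8202 to 8586). Other 697 peaks outnumbered REH peaks around 3402 (93.7%) of the 697-only peaks and 68.5% (67.6 to 69.4) of the overlapping peaks. No other 697 peak lay in the window of 67 (1.84%) of the 697-only and 3.57% (3.21 to 3.95) of the overlapping peaks. The rule clears REH peaks from the centre of the window around a 697-only peak and places a REH peak there for an overlapping peak. The contrast in REH peaks is thus in part fixed by it.

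The same was seen at single positions along the window. At 5 kb to the right of the midpoint, 24.1% of the 697-only peaks had a 697 peak and 4.90% a REH peak, and at 50 kb these shares were 15.0% and 5.23%. Around the overlapping peaks the same positions gave 17.7% and 11.1% at 5 kb, and 12.2% and 7.59% at 50 kb. For the longest 697-only peaks the flank cleared by the rule reached beyond 5 kb, so the REH share there is in part fixed by it. At 6 kb that share was 6.53%. For comparison, 697 peaks covered 3.59% and REH peaks 2.37% of the autosomal span between the first and last peaks. Both kinds of region therefore lay where peaks of both cell lines were denser than the average, and around the 697-only peaks this was so for REH peaks as well, beyond the excluded flank.

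**Figure D3:**
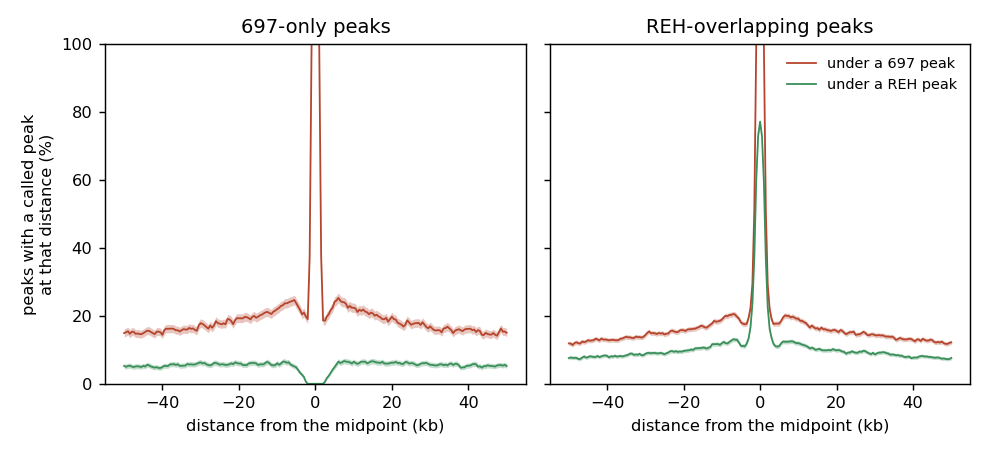
Share of 697-only peaks (left) and overlapping peaks (right) that had a called 697 or REH peak (y axis, percent) at each distance from their midpoint (x axis, kb), in steps of 500 bp with 95% exact binomial bands. Around the 697-only peaks the REH line is at 0% in the centre by the rule and at 5.23% at 50 kb, where the 697 line is at 15.0%.

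Between neighbouring REH peaks the autosomes held 43525 REH-free stretches, of which 2580 (5.93%) contained a 697-only peak. Stretches with a member were longer, with a median of 54089 bp (interval 50347 to 58181) against 13833 bp (13466 to 14133) without one, as the rule and the space needed for a peak favour. One member was found in 1964 stretches, 2 in 399, and 3 or more in 217, which together held 861 members or 23.7%. Of the 300 stretches of at least 1 Mb, 84 held a member and these contained 147 members. The stretch with the most was chr3:64009185-66271483, where 13 members and 44 697 peaks in all lay in 2262299 bp without a REH peak. The next was chr15:66272009-66563029, with 12 members and 54 697 peaks in 291021 bp. It was followed by chr3:10433027-11314097, with 10 members and 41 697 peaks in 881071 bp.

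The 697-only peaks followed each other along the chromosomes. When the 697 peaks of 2 to 10 kb were read from left to right, the peak after a 697-only peak was again 697-only in 1442 of 3627 cases (39.8%, interval 38.2 to 41.4). After an overlapping peak it was 697-only in 21.6% (20.8 to 22.4), with 26.4% over all peaks of this length. Neighbours between the same REH peaks share the class unless they lie within 1000 bp of REH. These shares are thus in part set by the rule and are given as a description. The longest run was of 14 697-only peaks in a row, at chr3:64437315-66451914, and the next were of 13, at chr15:66256062-66527980, chr3:10472627-11635062 and chr1:48033766-49158538.

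Clusters were defined as chains of at least 3 peaks of a class with gaps of at most 50 kb. In this way 1236 of the 3632 697-only peaks (34.0%, interval 32.5 to 35.6) fell into 287 clusters, 706 into pairs, and 1690 (46.5%, 44.9 to 48.2) had no other member within 50 kb. Of the overlapping peaks 47.8% (46.8 to 48.8) fell into 1019 clusters, but there were also 9985 of them against 3632, which alone brings them closer together. Their median gap to the next peak of the class was 20.8% of the mean gap (56899 of 274173 bp), and for the 697-only peaks it was 17.0% (128389 of 754108 bp). This ratio was lower for the 697-only peaks, but it carries no interval. Members can lie only where REH peaks are absent, so the ratio is in part set by the rule. It is given as a description. The number of members in clusters depends on the definition, and with a gap of at most 20 kb it was 652 (18.0%), with a gap of 100 kb 1668 (45.9%).

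Clustered members were a little longer than isolated ones. The median length was 2578 bp (interval 2542 to 2622) for members with no other within 50 kb and 2947 bp (2828 to 3074) for the 556 members in clusters of 5 or more. In the other direction, 29.6% of the members under 3000 bp and 48.6% (42.7 to 54.6) of those of 5000 bp or longer lay in clusters. The median distance to REH had overlapping intervals in these classes. It was 12300 bp (10805 to 13899) for isolated members and 14052 bp (11461 to 16412) in clusters of 5 or more. It was 11846 bp (10915 to 12855) for members under 3000 bp and 13817 bp (11387 to 18256) for those of 5000 bp or longer. The share more than 50 kb from REH was 18.9% (17.3 to 20.6) under 3000 bp and 26.6% (21.5 to 32.1) from 5000 bp on. Between these lengths it was 19.9% (17.5 to 22.4), an interval that overlapped both others. By grouping, the share was 23.02% (21.03 to 25.10) for isolated members, 13.7% (11.2 to 16.5) in clusters of 3 to 4 and 21.2% (17.9 to 24.9) in clusters of 5 or more. It thus did not follow cluster size in 1 direction. The gap to the nearest 697 peak was 2875 bp for isolated members and 1212 bp in clusters of 5 or more.

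All 22 autosomes had a cluster, with 43 on chromosome 1, 20 on chromosome 2 and 3 on chromosome 13. The spans of all clusters, from the first to the last member, held 3562 697 peaks over 7772269 bp and 597 REH peaks over 892321 bp. No REH peak lay inside 114 of the clusters (39.7%), which held 418 members. A 697 peak that overlapped a REH peak lay inside 170 of the 287 clusters, so that most of them also contained sites marked in both cell lines.

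The largest clusters by number of members were on chromosome 1. The first spanned chr1:202948730-203187193, with 15 members of 2099 to 7188 bp that covered 25.8% of its 238464 bp. It held 38 697 peaks over 112398 bp and 6 REH peaks over 8566 bp, and its members lay 2927 to 48433 bp from a REH peak. The longest members were at chr1:203089734-203096921 (7188 bp), chr1:203050669-203057685 (7017 bp) and chr1:203131237-203137797 (6561 bp). Between members lay a 697 peak of 17486 bp, chr1:203138722-203156207, too long for the range, which met REH only in a peak of 361 bp. By its overlap this long peak counts as shared, although nearly all of its length had no REH peak.

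The second cluster spanned chr1:204839786-205045883, also with 15 members, of 2116 to 6010 bp, over 27.4% of its 206098 bp. It held 2 REH peaks over 5091 bp among 38 697 peaks over 82321 bp, and its members were 4962 to 79730 bp from REH. Its longest members were chr1:204927218-204933227 (6010 bp) and chr1:204839786-204845751 (5966 bp). The third, chr3:177261469-177473501, had 14 members, most of them short (median 2526 bp) and 1 of 6729 bp at chr3:177428878-177435606. In it 9 REH peaks and 7 overlapping peaks of 2 to 10 kb lay between the members, whose distance to REH was at most 23847 bp.

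The cluster at chr15:66387135-66527980 was the largest without a REH peak inside. Its 12 members of 2436 to 7359 bp covered 35.4% of 140846 bp, the highest share of the 10 largest clusters, and 32 697 peaks covered 67866 bp. The nearest REH peak was 35049 bp from the last member, chr15:66520622-66527980, and 142276 bp from the farthest, chr15:66417337-66420753. The other 9 of the 10 largest clusters had 2 to 17 REH peaks inside. The map of the 3 largest clusters and of this one shows the members among all called peaks.

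The remaining clusters among the 10 largest each had 10 to 14 members. At chr5:157438480-157741553, 14 members lay among 17 REH peaks, with a median distance to REH of 3291 bp, the shortest among the 10. At chr6:14230717-14478924, 12 members lay among 17 REH peaks, 1032 to 10084 bp from REH. At chr2:234873898-235099187, 12 members lay with 2 REH peaks inside, at a median distance of 36956 bp. The others were chr1:1891590-2033100 with 11 members and 3 REH peaks, chr15:58729130-58883356 with 10 members and 8 REH peaks, and chr1:203415398-203610817 with 10 members and 6 REH peaks. Another 2 clusters also had 10 members and ranked after these by the bases under their members. Together the 10 clusters held 125 members (3.44% of all), 373 697 peaks over 945261 bp and 70 REH peaks over 108862 bp. They thus ranged from regions with few or no called REH peaks to regions where REH had many called peaks between the members.

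Across the autosomes the share of 697 peaks of 2 to 10 kb that were 697-only ranged from 14.5% to 32.8%, around the 26.4% over all. It was highest on chromosome 8, with 199 of 607 (32.8%, interval 29.1 to 36.7), chromosome 1, with 497 of 1541 (32.3%, 29.9 to 34.7), chromosome 3, with 240 of 773 (31.0%, 27.8 to 34.4), and chromosome 9, with 189 of 622 (30.4%, 26.8 to 34.2). On these 4 chromosomes the interval lay above the share over all, and the intervals of chromosomes 8 and 1 overlapped. Chromosome 1 was highest when the distance to REH was raised to 5 or 10 kb or the length to 3000 bp. Chromosome 19 had the lowest share, with 84 of 578 (14.5%, 11.8 to 17.7), and the intervals of chromosomes 13 (19.6%), 14 (21.6%) and 16 (21.8%) also lay below. On the other 14 autosomes the interval included it. The intervals here and for the bins below treat peaks as independent. Neighbouring peaks shared the class more often than the share over all, so these intervals can be too narrow. Chromosome 19 carried many overlapping peaks for its size, 8.31 per Mb against 1.43 697-only peaks per Mb, while chromosome 4 had 1.58 and 0.529 per Mb. A high density of overlapping peaks was not particular to chromosome 19, since chromosome 22 had 9.48 and 3.17 per Mb. The share on chromosome 22 was 24.4% (20.6 to 28.7), and its interval included the share over all. The number of 697 peaks per REH peak moved with these shares in part, being 1.93 on chromosome 1 and 1.43 on chromosome 19, but also 1.14 on chromosome 4, where 24.8% were 697-only. Its part in the differences between chromosomes was not tested.

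**Figure D4:**
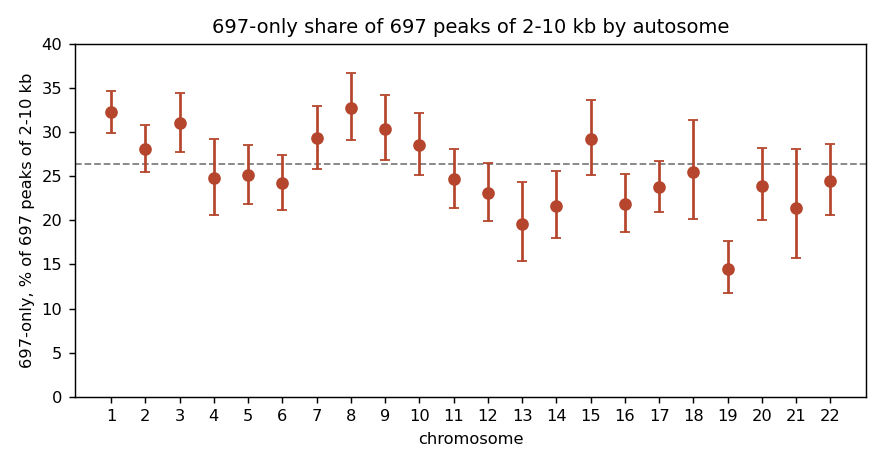
Share of 697 peaks of 2 to 10 kb that were 697-only (y axis, percent) on each autosome (x axis), with 95% exact binomial intervals and the share over all autosomes, 26.4%, as a dashed line. Chromosome 19 is lowest at 14.5%, and chromosomes 8 and 1 are highest at 32.8% and 32.3%.

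On chromosome 1 the members were concentrated in the 10 Mb from 200000001 to 210000000, in a division into bins that was chosen after the data were seen. This bin held 107 697-only peaks of 202 in the length range (53.0%, interval 45.8 to 60.0), 2.95% of all 697-only peaks against 0.941% of the overlapping peaks. It contained 12 clusters with 81 of the 107 members, among them 3 of the 10 largest. It had 880 697 and 252 REH peaks, a ratio of 3.49 against 1.69 on all autosomes. Without this bin, 390 of 1339 peaks of chromosome 1 were 697-only (29.1%, 26.7 to 31.6), and the interval still lay above the share over all, though by less.

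Of the 222 bins of 10 Mb with at least 20 peaks in the length range, 7 had over 50% 697-only peaks and 7 under 10%. The highest share was in chromosome 7 from 20000001 to 30000000, with 40 of 64 (62.5%, interval 49.5 to 74.3), and 28 of 53 (52.8%) were found in chromosome 3 from 60000001 to 70000000. By number, the second bin was at the end of chromosome 8, from 140000001 on, with 56 of 137 (40.9%). At the other extreme, 0 of 20 peaks in chromosome 5 from 90000001 to 100000000 were 697-only (interval up to 16.8%), and 13 of 136 (9.56%) were in the first 10 Mb of chromosome 19. Members were nevertheless widespread, since 266 of 286 bins with a peak in the length range held at least 1. Near the chromosome ends the shares of both classes were within counting error of each other. Within 5 Mb of the first or last peak of a chromosome lay 15.3% (14.1 to 16.5) of the 697-only and 15.3% (14.6 to 16.0) of the overlapping peaks.

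The 10 longest members measured 8837 to 9896 bp, and 7 of them belonged to clusters, against 34.0% of all members. The longest, chr9:3766960-3776855, was 6982 bp from a REH peak and had 16 other 697 peaks and 1 REH peak within 50 kb. The second, chr2:43553414-43563307, of 9894 bp, had 12 other 697 peaks and no REH peak in that window, with the nearest REH peak 85662 bp away. The next, chr3:10504536-10514332, of 9797 bp, lay 71509 bp from REH in a cluster of 9. It was followed by chr9:129176658-129186332 (9675 bp), chr1:201063300-201072889 (9590 bp) and chr5:79371239-79380808 (9570 bp), which were 2228, 4000 and 4981 bp from REH. The longest members thus did not lie in 1 kind of surrounding: 7 of the 10 were under 10 kb from REH, 3 were farther, and all had at least 12 other 697 peaks within 50 kb.

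The members farthest from REH were mostly short and mostly had no other member within 50 kb. Of the 10 farthest, at 882739 to 1744366 bp, 9 were under 3000 bp and 1 belonged to a cluster. Among all members these shares were 62.4% and 34.0%. The farthest, chr17:51194469-51198297, of 3829 bp, lay 1744366 bp from a REH peak on the left and 1846488 bp on the right, with 4 other 697 peaks within 50 kb. Next were chr3:85869216-85871558 (2343 bp, 1404269 bp away), chr3:21586709-21589699 (2991 bp, 1357916 bp) and chr2:81089041-81091552 (2512 bp, 1234199 bp). None of the 10 had a REH peak within 50 kb, as their distance requires. Another 697 peak lay within 10 kb of 5 of them, against 90.0% of all members. Over all members, the farthest in this sense were rare, since 7 lay more than 1 Mb from REH.

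At the limits of the rule, members and other peaks were alike in the measure that separated them. The members nearest to REH lay 1002, 1005 and 1006 bp away, and the peaks just left out 994, 993 and 993 bp. The shortest members had 2000 bp and the longest peaks below the limit 1999 bp. At the upper limit the longest member had 9896 bp, and the next 697 peak without a REH peak within 1000 bp had 10005 bp.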

How the data were processed

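Peaks were analysed in 1 H3K27ac library of REH and 1 of 697. Per the labels and the study's methods, the authors aligned reads to hg19 (Bowtie in the methods, Bowtie2 in the submitters' processing notes). Per the file headers, the authors ran MACS 2.1.0.20150731 in broad mode separately for REH and 697 with the matching input DNA as control, at most 1 tag per position, q-value cutoffs of 0.05 and 0.1, and fragments of 187 bp (REH) or 185 bp (697). The methods give another version of MACS, and the headers were followed. The deposited peak positions and lengths, in bp with 1-based starts, were used, and the pileup, fold, p and q columns were not. These lists depend on the cutoff and on the joining of close regions.

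Gaps were counted in bases between peaks. A REH peak inside a 697 peak counted as near it. Shares carry exact binomial intervals and medians order-statistic intervals, both at 95%. Regions were named by fixed rules: the 10 clusters with the most members (ties by bases under members), the 10 longest and the 10 farthest members, and those at the limits. The bins, stretches, runs and windows were chosen after seeing the data. The members and lists were chosen with earlier results of these data known. The gene lists, transcription starts and markers were not analysed here, for want of an hg19 annotation. Alternatives were other distances, lengths, REH peaks, merging, chromosomes and cluster definitions. Classes and distances were tested on simulated data. Tables were made with pandas 2.3.3 and numpy 2.4.6 under Python 3.11.15, intervals with scipy 1.17.1 and plots with matplotlib 3.10.9.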

Additional observations from a re-analysis of the deposited data

Results flagged for a closer look

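Peaks outside the rule also met its distance requirement. On chromosome X, which the rule leaves out, 33 of 195 697 peaks of 2 to 10 kb had no REH peak within 1000 bp (16.9%, interval 11.9 to 22.9), an interval below the 26.4% found on the autosomes, with no test of the difference. On the autosomes, 22 of 327 697 peaks of 10 kb or more had none (6.73%, interval 4.26 to 10.0), the longest of them chr20:58150502-58174303, of 23802 bp and 107287 bp from a REH peak, and chr12:72416227-72434371, of 18145 bp and 181724 bp from one.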

How the results depend on the processing

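Of 74 alternative values, 41 moved beyond the counting interval or a factor of 1.5. With no REH peak within 10 kb, 1994 members remained, a median of 83.5 per autosome in place of 155.5. They were 14.5% of the peaks in the length range, with a median distance of 32160 bp, 23.8% in clusters and 83.0% with another 697 peak within 10 kb. With 5 kb, these values were 19.5%, 20756 bp, 28.0% and 87.0%. With only overlap excluded, the share was 27.5% and the distance 11146 bp. When REH peaks under 500 bp were ignored, the share was 30.8%, the distance 14094 bp and 36.8% lay in clusters. From 3000 bp on there were 1367 members, a median of 56.5 per autosome, a share of 20.9%, a median length of 3824 bp, 18.9% in clusters and 93.3% with a 697 peak within 10 kb. Merging peaks within 1000 bp gave 29.5%, 2799 bp, 35.9% and 87.9% for these 4 measures. Counting distance from the ends of a peak alone added 626 peaks with a REH peak in their interior and gave 30.9%. Without chromosome 1, chosen after seeing the data, the share was 25.6%. The percent in clusters was 18.0%, 45.9% and 15.3% of the 697-only and 26.4%, 65.5% and 25.9% of the overlapping peaks with gaps of 20 kb, gaps of 100 kb and at least 5 members. Chromosome 19 had the lowest share in 8 of 9 settings, the exception being lengths from 3000 bp, where chromosome 13 had 11.8%. The highest share was on chromosome 8 in 6 of 9 settings and on chromosome 1 in the other 3, with no REH peak within 5 or 10 kb and with lengths from 3000 bp. Another distance, length or gap changes these values by construction, and the cause of the other moves was not tested.

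Not run were the transcription start results, which need an hg19 annotation, and a stricter threshold, since the p columns were not used. The depth at each peak was not analysed here, since the pileup column was left out by the rule. No paired analysis was possible because each cell line has 1 library and no result comes from a test.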
